A study of Mus musculus with 2 samples.

Results

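The genes described here are those of glycolytic enzymes and glucose transporters in mouse embryonic stem cells, namely Slc2a1, Slc2a3, Hk1, Hk2, Pfkl, Aldoa, Pgk1, Eno1, Pkm and Ldha. They were taken by name, through the probe sets whose annotation named 1 of these genes and no other. That rule found 19 probe sets of 9 of the 10 genes, among 15273 probe sets of 10313 genes in all, and Eno1 was not analysed here. The control cells and the lincU overexpression cells were both of the embryonic stem cell line 46C, kept on a feeder layer with 15% serum and leukaemia inhibitory factor at 1000 U/ml, and the layer was taken off before the RNA was made. LincU is a long noncoding RNA, and the comparison asks which transcripts differ when it is raised, with naive pluripotency and ERK activity as the study's subjects. The labels give no vector or promoter for the overexpression and do not say whether the cells were 1 clone or a pool. Each group was 1 Affymetrix 3' expression array, so no difference has a replicate check, no test was possible, and every statement is about these 2 arrays.

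Glycolysis breaks glucose down to pyruvate in the cytosol and yields ATP without oxygen. Glucose enters through transporters of the SLC2 family, hexokinase traps it as glucose 6-phosphate, phosphofructokinase commits it to the pathway, and lactate dehydrogenase turns the pyruvate into lactate. Pluripotent stem cells are known for a high glycolytic rate, and naive cells use mitochondrial respiration beside glycolysis while primed cells rely more on glycolysis alone. Many genes of the pathway are known targets of hypoxia-inducible factor and of MYC.

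The members had near-equal signals on both arrays. Over the 9 measured members the median log2 difference, overexpression minus control, was 0.0011, and over all 5609 genes bright enough to compare it was 0.0010. A gene was called bright where its array of higher signal was at or above that array's median over named probe sets, which was a log2 signal of 7.96 for control and 7.90 for overexpression. Unless said otherwise, a gene is given by its brightest probe set, taken over the mean of both arrays. All 9 members were bright, and 5 stood above 0 and 4 below, where 50.2% of all bright genes stood above 0. None of the 9 members was 2-fold higher or lower, where 2.83% of all bright genes were. None was 1.5-fold higher or lower, where 11.3% of bright genes were. The members' differences ran from -0.39 in Pfkl to 0.19 in Slc2a3, with an SD of 0.19 between members against 0.40 between all bright genes. Of the 9 members, 7 had a mean log2 signal of 12 or more. Over all 961 genes at that level the SD was 0.26, nearer to that of the members.

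The only repeats at hand were probe sets that read the same gene. In the 1732 genes that had more than 1 bright probe set, their log2 differences scattered with an SD of 0.23, and in the 347 brightest of these genes with an SD of 0.15. This SD holds no variation between cultures. Pfkl was the 1 member of 9 that passed 0.23 in either direction, where 42% of bright genes did. Dim genes vary more than bright ones, and the members are mostly bright. Among the 961 genes of mean log2 signal 12 or more, 22.4% passed 0.23, and none of the 7 members at that level did. These shares describe 2 arrays, and a share of so few members can be far from the background without the members being particular.

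**Figure D1:**
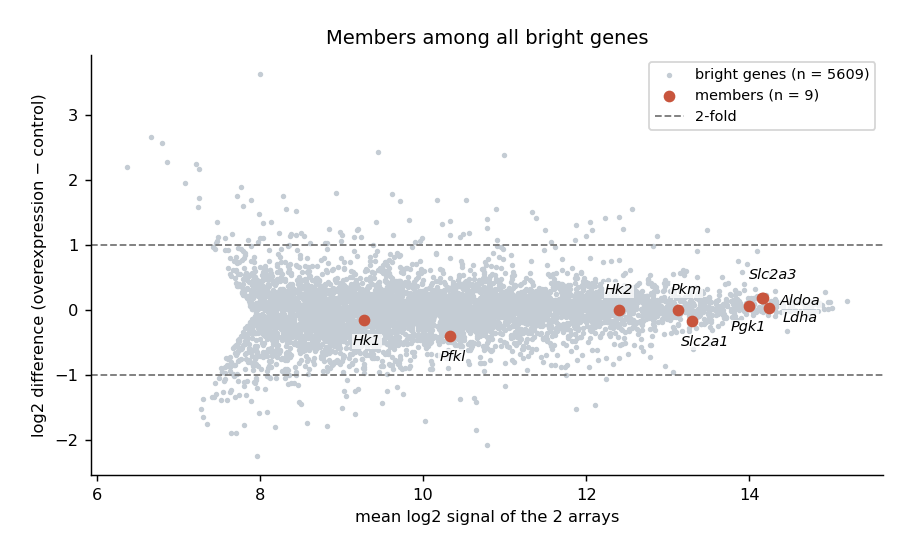
Mean log2 signal of both arrays (horizontal axis) against the log2 difference, overexpression minus control (vertical axis), for 5609 bright genes in grey and 9 members in red. All 9 members lie inside the dashed 2-fold lines, and 7 of them lie at a mean log2 signal of 12 or more.

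Promoter sequence is shown for 4 members because the pathway is known as a shared target of hypoxia-inducible factor and MYC, and the members' near-equal signals can then be read beside the letters in front of each gene. ACGTG is the core of the element bound by hypoxia-inducible factors, and CACGTG, which contains it, is the E-box bound by MYC with its partner MAX. Each run holds the 250 bases before the RefSeq start site in GRCm38.p6, 5′ to 3′ on the strand of the gene. Capitals mark ACGTG on either strand, so that its reverse complement CACGT is in capitals too and a CACGTG counts as 2 overlapping matches. Ldha had the most matches of the members, Pgk1 had 2, and Slc2a1 had a single match and lower signal on every probe set. Pfkl had the largest difference and no ACGTG. Among the members with windows not shown, Hk2 had 2 matches and a difference of 0.0011. Aldoa, at 0.18, and Pkm, at -0.0038, had at most 1 match in a window, and Hk1, at -0.16, had none. The Ldha window is chr7:46845554-46845803 on the plus strand, the first of 2 start sites in the table. That of Pgk1 is chrX:106186850-106187099 on the plus strand, that of Slc2a1 chr4:119108495-119108744 on the plus strand and that of Pfkl chr10:78009808-78010057 on the minus strand.
Ldha: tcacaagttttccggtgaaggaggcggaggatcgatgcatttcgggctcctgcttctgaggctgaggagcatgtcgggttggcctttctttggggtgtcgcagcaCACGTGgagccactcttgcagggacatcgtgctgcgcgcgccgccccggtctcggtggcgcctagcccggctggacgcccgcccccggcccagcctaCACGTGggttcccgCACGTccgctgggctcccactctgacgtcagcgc
Pgk1: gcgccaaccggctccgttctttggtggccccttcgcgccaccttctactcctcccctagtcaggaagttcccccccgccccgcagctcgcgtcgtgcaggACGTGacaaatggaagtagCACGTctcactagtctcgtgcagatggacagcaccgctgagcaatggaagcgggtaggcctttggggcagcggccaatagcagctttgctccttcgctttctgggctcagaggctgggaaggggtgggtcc
Slc2a1: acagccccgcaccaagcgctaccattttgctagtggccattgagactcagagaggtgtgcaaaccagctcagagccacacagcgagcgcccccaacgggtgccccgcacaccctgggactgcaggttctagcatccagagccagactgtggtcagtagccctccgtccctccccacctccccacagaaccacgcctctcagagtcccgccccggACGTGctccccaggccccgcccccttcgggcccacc
Pfkl: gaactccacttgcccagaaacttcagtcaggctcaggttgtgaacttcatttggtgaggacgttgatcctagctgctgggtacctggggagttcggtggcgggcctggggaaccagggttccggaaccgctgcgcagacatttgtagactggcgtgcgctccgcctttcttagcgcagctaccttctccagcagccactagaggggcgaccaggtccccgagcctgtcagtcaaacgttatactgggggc

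The Ldha window holds 5 matches, 4 of them in 2 E-boxes. The RefSeq table had promoters for 8 of the 9 measured members, with 13 start sites in all, and none for Slc2a3. ACGTG was found before 7 of these 13 start sites, a share of 53.8%, against 22.9% of the 6008 start sites of bright genes and 16.6% of all 32851. By gene, it was found in Slc2a1, Hk2, Aldoa, Pgk1, Pkm and Ldha and not in Hk1 or Pfkl. Overlapping windows of Aldoa held the same match, so the share by start site counts it more than once. Aldoa, Pkm and Ldha also had a start site without ACGTG. Eno1, with no array value here, is outside these shares, and none of its start sites held ACGTG. The CACGTG E-box was found before 1 of the 13, a share of 7.69%, against 8.95% for bright genes. The windows of members and of bright genes both had a median of 17 CG dinucleotides, against 6 over all windows. The 6 members with ACGTG differed by -0.17 to 0.18, and the 2 without it by -0.16 and -0.39. Those 2 genes each hold GCGTG in a window, so a lack of ACGTG is not a lack of the core. Whether such letters bear on the differences was not tested. A match is a run of letters and not a measured binding site.

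Uptake of glucose is the first step. Slc2a1 encodes GLUT1, the widely expressed glucose transporter. Its 3 probe sets had log2 signals of 13.38, 13.01 and 12.73 on the control array and 13.21, 12.82 and 12.37 on the overexpression array. All 3 were lower in the overexpressing cells, by -0.17, -0.19 and -0.36 on the log2 scale. Slc2a3 encodes GLUT3, a transporter of high affinity for glucose that is abundant in neurons and in the early embryo. Its 3 probe sets had log2 signals of 14.07, 10.23 and 9.07 on the control array and 14.26, 10.40 and 9.27 on the overexpression array. All 3 were higher, by 0.19, 0.17 and 0.20, and they spanned only 0.033 although their signals lie far apart. As deposited, the transporters stood on opposite sides of 0 with no overlap between their probe sets. Slc2a3 lies in a stretch of chromosome 6 with higher signals, whose bounds were set with earlier results of these data known. With the median of that stretch subtracted, Slc2a3 stood at -0.18, on the same side as Slc2a1. The brightest Slc2a1 probe set was at -0.17, so Slc2a3 was then no longer ahead of it. In the values as deposited, Slc2a3 was ahead by 0.34 to 0.56 over the 9 pairings of a Slc2a3 with a Slc2a1 probe set. Probe sets of 1 gene share the same RNA and array, so these are not independent samples. Of the 341 genes with 3 bright probe sets, 170 had all of them on the same side of 0, a share of 49.9%. On their brightest probe sets the folds were 1.12 lower for Slc2a1 and 1.14 higher for Slc2a3. Both lie near the SD of 0.15 between probe sets of very bright genes, and scaling moves them across it, with Slc2a1 at -0.11 after centring on the array median and Slc2a3 at 0.13 after quantile normalization or subtraction of a loess trend.

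Hexokinase phosphorylates glucose and keeps it in the cell. Hk1, the broadly expressed form, had log2 signals of 9.35 (control) and 9.19 (overexpression) on its bright probe set, which differ by -0.16. Its other probe set was at 5.60 and 5.62, under the floor of 5.73 and 5.65 set at the 25th percentile of each array, and gives no difference. A further probe set is annotated to Hk1 and to 5 other names and was left out. Hk2, the inducible form known from muscle and from tumours, had 12.41 on both arrays, a difference of 0.0011. The Hk2 signal thus lay at percentile 94.1 of named probe sets in control and 93.9 in overexpressing cells, and that of Hk1 at 66.6 and 65.2. Signals of different probe sets depend on their binding as well as on the RNA, so these percentiles do not rank the isoforms by amount.

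Phosphofructokinase adds the second phosphate and is the main point of control. Pfkl, the liver-type subunit, went from a log2 signal of 10.53 to 10.14, a difference of -0.39 or 1.31-fold lower, on its 1 probe set. This was the largest difference among the members, and it still left 13.5% of bright genes with a lower value. The other subunits, which may share a tetramer with it, are described with the isoforms.

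Aldolase splits the six-carbon sugar. Aldoa had 4 probe sets with control log2 signals from 13.31 to 14.07 and overexpression log2 signals from 13.29 to 14.25. All are of the type that can bind several related transcripts. Their differences were 0.18, -0.018, 0.070 and -0.014, so that 2 were above and 2 below 0, and the value of 0.18 stands on the brightest alone. Phosphoglycerate kinase makes the first ATP of the pathway. Pgk1 had control log2 signals of 13.96, 13.97 and 13.73 and overexpression log2 signals of 14.02, 13.88 and 13.54. Its differences of 0.059, -0.085 and -0.18 lay on both sides of 0. The 2 below 0 came from probe sets of the same type as those of Aldoa, and the 1 above 0 did not.

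The last steps form pyruvate and lactate. Pkm, whose transcript is spliced into the M1 and M2 forms of pyruvate kinase, had a log2 signal of 13.13 on both arrays, a difference of -0.0038. The file does not say which splice form its 1 probe set reads. Ldha, the subunit of lactate dehydrogenase that prevails where lactate is made, had log2 signals of 14.22 (control) and 14.25 (overexpression), which differ by 0.035. The difference between the arrays was thus at most 1.02-fold for Hk2, Pkm and Ldha. Each of these rests on 1 probe set.

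**Figure D2:**
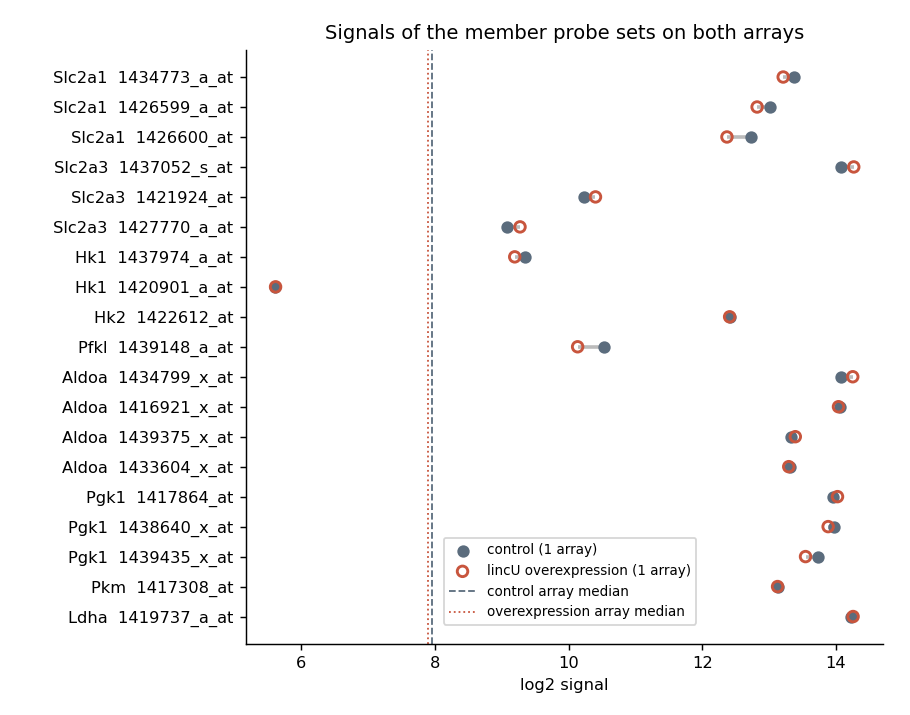
Log2 signal (horizontal axis) of the 19 member probe sets, 1 line each, on the control array (filled) and the overexpression array (open), with the median of each array as a vertical line. Only the second Hk1 probe set lies under the medians, and the symbols overlap for Hk2, Pkm and Ldha.

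**Figure D3:**
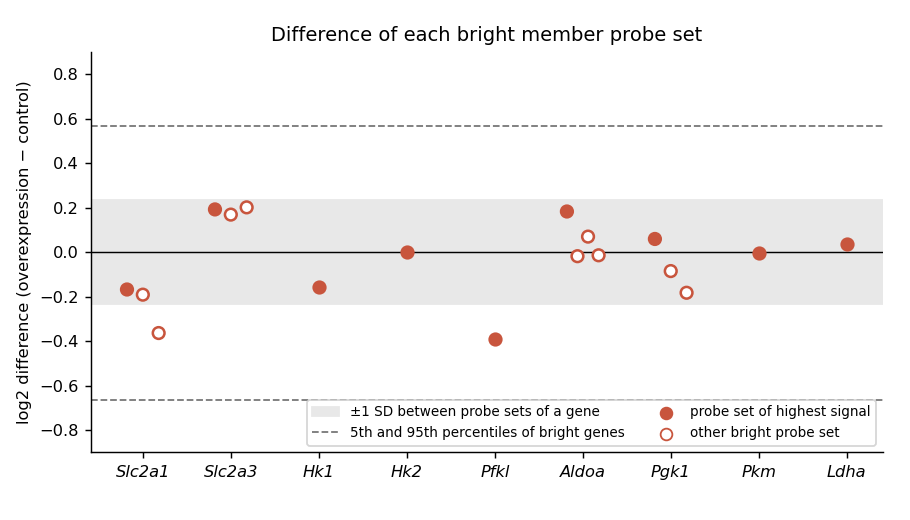
Log2 difference (vertical axis) of the 18 bright member probe sets by gene in pathway order, with a grey band of 1 SD (0.23) between probe sets of a gene and dashed lines at the 5th and 95th percentiles of bright genes, -0.66 and 0.57. The 3 Slc2a1 probe sets lie below 0 and the 3 Slc2a3 probe sets above, and Pfkl and 1 Slc2a1 probe set lie outside the band.

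The isoforms of each step were split between bright and dim in the same way on both arrays, apart from Eno3. Of the hexokinases Hk1 and Hk2 were bright, and Hkdc1 was dim, at log2 signals of 3.93 and 5.89. Of the aldolases Aldoa was bright, and the brain form Aldoc was under the floor on both arrays. The testis form Pgk2 was under the floor on both arrays as well. Pgam1, which moves the phosphate of phosphoglycerate, was at 13.85 and 13.90, while the muscle form Pgam2 was dim, at 7.07 and 6.22. Pklr, the liver and red cell pyruvate kinase, was dim on all 3 of its probe sets, of which 2 were under the floor in overexpressing cells. The testis form Ldhc was dim at 6.69 and 7.89. Of the transporters, Slc2a4, Slc2a5 and Slc2a10 were dim on both arrays, and Slc2a10 was under the floor on both.

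Other isoforms were bright beside the members. Pfkp, the platelet-type phosphofructokinase subunit, went from 11.52 to 11.85, a difference of 0.33, opposite in sign to Pfkl, and its second bright probe set differed by 0.14. Pfkm, the muscle subunit, differed by -0.15. The 3 subunit genes of this enzyme therefore had values of -0.39, -0.15 and 0.33, without replicates. Ldhb, the other main subunit of lactate dehydrogenase, went from 11.60 to 11.95, and its 3 probe sets differed by 0.35, 0.36 and 0.38, where Ldha differed by 0.035. Eno3, the muscle form of enolase, went from a log2 signal of 9.22 to 7.78, a difference of -1.44 or 2.72-fold lower on its 1 probe set. It lay above the median of the control array and under that of the overexpression array.

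Over the list of other glycolytic enzymes and transporters, 17 of 31 genes were measured and 7 were bright. Of these 7, 5 stood above 0 and 2 below, where 50.2% of all bright genes stood above 0. The median of the 7 was 0.13 against 0.0010 for all bright genes. Eno3 was the 1 gene past 2-fold, as a lower value, where 1.30% of bright genes were. Besides Eno3, Ldhb and Pfkp, the largest difference was in Bpgm, the enzyme of 2,3-bisphosphoglycerate, whose 3 bright probe sets differed by 0.24, -0.26 and -0.035. Tpi1, which interconverts the triose phosphates, differed by 0.13 and Pgam1 by 0.043. When probe sets with names ending in _s_at, _x_at or _a_at, which can read several transcripts, were left out, the median of this list was -0.20. It was 0.043 with a gene's probe sets averaged and -0.024 with the median of the chromosome 6 stretch, which holds Ldhb and Tpi1, subtracted from its genes. No probe set named Gapdh alone apart from the array's control probe sets, which read the 5′ end, the middle and the 3′ end of its transcript and differed by 0.17, 0.12 and 0.16. Gpi1 was not analysed here.

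Slc2a3 lies in a stretch of distal chromosome 6 whose genes were mostly higher, and the gene order was taken from GRCm38.p6. That stretch, bounded by Rad18 and Resf1, held 97 bright genes, and their median was 0.37. Of the 97, 81 were above 0, where 50.2% of all bright genes were. The bounds came from an earlier look at these same data, so this share and median follow in part from that choice. The same holds for the neighbours of Slc2a3, which lie inside the stretch. At 0.19, Slc2a3 was below that median by 0.18, with 67 genes of the stretch above it and 29 below. Of its 20 nearest bright genes, 10 on each side, 17 were above 0 and 14 were above Slc2a3, and their median was 0.34. Nanog, the pluripotency factor next to it, differed by 0.57, and Necap1 on the other side by 0.56. Dppa3, a maternal-effect gene beyond Nanog, differed by -0.38, and Clstn3 by -0.59. The Slc2a3 difference was thus smaller than the typical difference around it. Ldhb and Tpi1 lie in the same stretch and stood at -0.024 and -0.24 with that median subtracted. Hk2 lies on chromosome 6 before Rad18, where the 178 bright genes had a median of 0.017. Why the stretch differs was not tested.

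**Figure D4:**
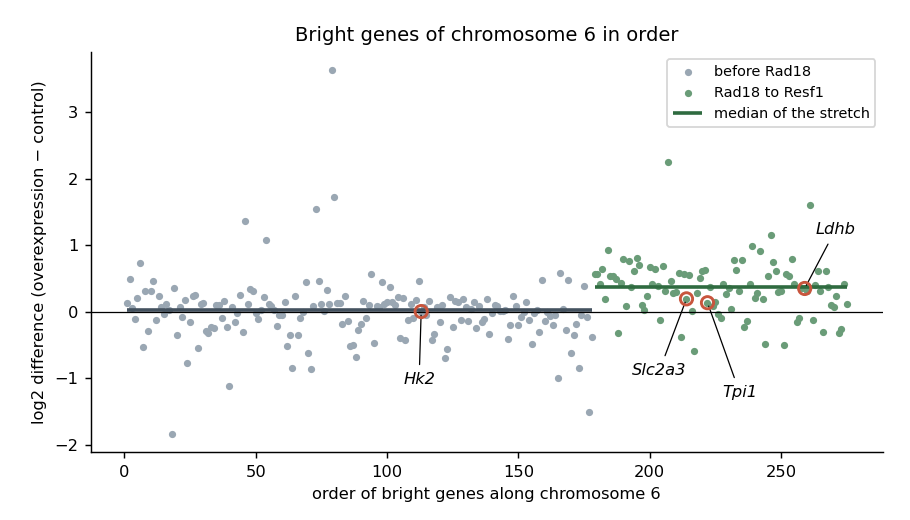
Log2 difference (vertical axis) of the bright genes of chromosome 6 in their order (horizontal axis, a count of genes), in grey before Rad18 and in green from Rad18 to Resf1, with the median of each part as a line. Slc2a3 and Tpi1 lie under the median line of 0.37, Ldhb lies on it, and Hk2 lies on the line of 0.017.

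Genes that feed or drain the pathway were counted from lists, and the same background shares apply to them. In the pentose phosphate branch, which takes glucose 6-phosphate to make NADPH and ribose, 6 of 8 genes were measured, all bright. Their median was 0.37, and 5 stood above 0, where 50.2% of all bright genes did. The 5 include a gene at 0.077 whose 4 bright probe sets ran from -0.32 to 0.077. Tkt, the transketolase gene, went from a log2 signal of 13.97 to 14.55, a difference of 0.57. Rpia and Rpe, which interconvert the pentose phosphates, differed by 0.56 and 0.41, and the lactonase gene Pgls by -0.61. Of the 6 genes, 4 were past 0.23 as higher values, where 18.7% of bright genes were, and 1 as a lower value, where 23.3% were. Pgls alone was past 1.5-fold, where 6.69% of bright genes were lower by that much. With the arrays centred on their medians it stood at -0.56 and was not past it, while Tkt at 0.63 and Rpia at 0.61 were. Rpia also passed, at 0.61 and 0.62, after quantile normalization and after subtraction of a loess trend. Tkt lies in a stretch of proximal chromosome 14 whose 70 bright genes had a median of 1.08, and subtracting this put Tkt at -0.50 and the median of the list at 0.20. The stretches of chromosome 14, like that of chromosome 6, were bounded with earlier results of these data known.

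Among the genes of pyruvate entry to mitochondria, 5 of 6 were measured, all bright, with a median of 0.047. Pdhb, a subunit of pyruvate dehydrogenase, differed by 0.91 and by 2.26 on a second bright probe set. It lies in the same stretch as Tkt, and subtracting the median of that stretch, 1.08, put its brightest probe set at -0.17. The value of 2.26 lies above that median. The second probe set had log2 signals of 7.18 (control) and 9.44 (overexpression). It was thus bright through the overexpression array alone, where it is higher, and was under the median of the control array. Pdha1, Pcx and Dld differed by -0.19, 0.16 and 0.047. Of the regulators of flux, 5 of 11 were measured and 2 were bright, with Pdk3 at 0.24 and Pdk1 at -0.13, both kinases that switch off pyruvate dehydrogenase. Of the genes of lactate and pyruvate transport, 4 of 8 were measured and 2 were bright. The monocarboxylate transporter gene Slc16a1 differed by -0.22 and Emb, the gene of its partner embigin, by -0.36. Of the gluconeogenic genes 5 of 6 were measured and 2 were bright, with Pck2, which makes phosphoenolpyruvate in mitochondria, at -0.81 and G6pc3 at 0.084. Pck2 lies on the rest of chromosome 14, whose 137 bright genes had a median of -0.59, and it stood at -0.22 with that median subtracted.

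The factors known to act on the members were measured as RNA only. Of the hypoxia-inducible factors and their targets outside glycolysis, 19 of 22 were measured and 12 were bright. This list shares Hif1a, Pdk1 and Pfkfb3 with others here. The bright genes had a median of -0.16, with 4 above 0 and 8 below, where 50.2% of all bright genes were above 0. The stress-induced gene Ddit4 differed by -0.90, Vegfa by -0.66 and the prolyl hydroxylase genes Egln1 and Egln3 by -0.52 and 0.46. Of these 12 genes, 2 were lower by at least 1.5-fold, where 6.69% of bright genes were, and none was higher by as much, where 4.65% were. Vegfa, 1 of the 2, was no longer past it with a loess trend subtracted, at -0.58, or with a pseudocount added instead of a floor, at -0.57. Its log2 signals were 8.06 (control) and 7.39 (overexpression). It was thus bright through the control array alone, where it is higher, and was under the median of the overexpression array. The transcription and splicing factors tied to the members had 11 of 12 genes measured, all bright, with a median of -0.043. Esrrb differed by 0.65, Lin28a by -0.53, Mycn by -0.53 and Stat3 by -0.25. A second bright probe set of Esrrb differed by 0.17 and one of Lin28a by -1.45.

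**Figure D5:**
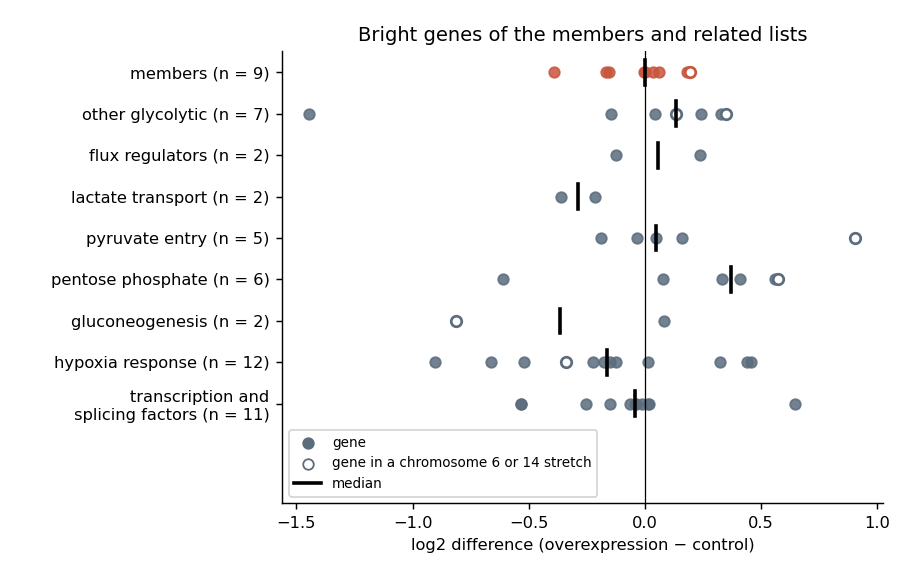
Log2 difference (horizontal axis) of the 9 members and of the bright genes of 8 related lists, 1 point per gene, with the median of each list as a black bar and open points for genes in the chromosome 6 or 14 stretches. The members lie between -0.39 and 0.19, while the pentose phosphate genes have a median of 0.37 and 1 value under -0.5.

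The cultures were checked for cell type and RNA quality. Of the embryonic stem cell markers all 9 measured of 10 were bright, and the log2 of their summed signal was 16.5 (control) and 16.6 (overexpression). Of the feeder fibroblast markers 13 of 16 were measured and 11 were bright, and the log2 of their summed signal was 13.5 (control) and 13.4 (overexpression). None of either list was at 0 on either array, but this held for every list here, genes under the floor included. It therefore does not bear on which cells were present. A feeder marker was under the floor on the control array, at a log2 signal of 5.09. With 11 feeder markers bright, RNA of feeder cells may lie in both samples. Fibroblasts also express the members, and the part of feeder RNA in the values was not tested. Of 7 markers of red cells and muscle, 3 were measured and only Actn3 was bright, at a difference of 0.43. In bulk RNA fewer cells of a type and less RNA per cell cannot be told apart. For the Gapdh control probe sets, the 3′ end minus the 5′ end was -0.31 (control) and -0.32 (overexpression) in log2 signal, and for those of beta-actin it was 0.45 and 0.50.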

How the data were processed

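The authors deposited 1 log2 signal for each probe set of each array. MAS5 and affy are named, with no version or role, in the submitters' processing notes, and no scaling target is stated in the labels or the file. The log2 scale was read from the values, whose maxima were 15.13 and 15.26. Scanner files and detection calls were not used here. Probe sets were named through the platform annotation, with symbols updated by gene ID through RefSeq GRCm38.p6. Of 16994 probe sets, 64 control, 501 several-gene and 1156 unnamed ones were left out of the gene comparisons.

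Values were compared as deposited. Low values were raised to a floor, the 25th percentile over named probe sets of that array, and a difference with both arrays under it was set to 0. With 1 array per group there is no test, and precision is limited by the number of arrays. Only the 2-fold rule was tested on simulated data, with planted changes larger than 2-fold. The 1.5-fold rule and the SD between probe sets were not tested in that way. Alternatives were scaling (centring, quantile normalization, loess), the floor (none, 40th percentile, a pseudocount of 32), the probe set choice, and subtraction of stretch medians. Beyond the members, at most the 4 bright genes of largest absolute difference per list were named, with Gapdh, Tpi1, Gpi1 and Pgam1. Neighbours and dim isoforms were named by position or family, and the neighbours and isoforms singled out were chosen after their values were seen. Members, lists and the bounds of the chromosome stretches were chosen with earlier results of these data known. Python 3.11.15, pandas 2.3.3 and statsmodels 0.14.6 were used.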

Additional observations from a re-analysis of the deposited data

How the results depend on the processing

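No member measured was 1.5-fold or 2-fold different under any of the scaling, floor and probe set alternatives run, and the median of the members stayed between -0.038 and 0.056. Leaving out 1 member at a time moved that median between -0.0014 and 0.018. Centring on the array median raised the count of members past the SD between probe sets from 1 to 3, through Slc2a3 at 0.25 and Aldoa at 0.24, and averaging a gene's probe sets raised it to 2, through Slc2a1 at -0.24. This count was added after the data were seen, as were the pentose phosphate median and the subtraction of chromosome 14 medians. Slc2a3 stood at 0.13 to 0.25 under the scaling, floor and probe set alternatives, and at -0.18 with the median of the chromosome 6 stretch subtracted. Leaving out probe sets that can read several transcripts left 5 of the 9 members, without Hk1, Pfkl, Aldoa and Ldha, and the 1 member past the SD was then Slc2a1, at -0.36. The median of the other glycolytic genes was -0.20 in the same setting and -0.024 with the median of the chromosome 6 stretch subtracted. On its brightest probe set, Pdhb stood at -0.17 with the median of its stretch subtracted. The members' values were far above the floor on 18 of 19 probe sets, so the floor bears on Hk1's dim probe set alone. No paired analysis was possible because each group has 1 array.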
